A study of Mus musculus with 24 samples.

Results

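The ETS transcription factors followed here are 9 genes of the family, Etv1, Etv4, Etv5, Ets1, Ets2, Ehf, Elf3, Elk3 and Gabpa, taken by name, with earlier results of these data known. Each symbol matched 1 Ensembl identifier in the count tables, so that all 9 members were found among 45706 listed genes, and all 9 passed the filter on low counts in both tissues. The data are RNA sequencing counts per gene from 24 mouse organoid libraries, 12 of small intestine (SI) and 12 of colon (COL), made to compare what mutant BRAF and mutant p53 do in epithelium that had carried no oncogene.

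The C57BL/6N cultures had 3 genotypes. BRAF cultures (BraffloxV600E/+;Villin::CreERT2) express wild-type BRAF until Cre removes the floxed segment and BRAFV600E is made. In p53 cultures (Trp53LSL-R172H/+;Villin::CreERT2) a stop cassette blocks p53R172H until Cre removes it, and BRAFp53 cultures (BraffloxV600E/+;Trp53LSL-R172H/+;Villin::CreERT2) carry both alleles. Every culture, controls included, holds the CreERT2 transgene, whose Villin promoter is active in intestinal epithelium. Induced (on) cultures received 4-hydroxytamoxifen (4-HT) for 24 h, at 0.5 µM in SI and 3.5 µM in COL, and non-induced (off) cultures received ethanol. RNA was taken 8 days (SI) or 3 days (COL) later, and only the COL medium contained Wnt3a and the GSK3 inhibitor CHIR99021. These differences in dose, time and medium cannot be told apart from the tissue. Each of the 12 groups had 2 libraries from 1 culture. The p-values for induction and for differences between responses thus measure the spread between duplicates of a culture. Those for off COL against off SI measure the spread between 3 cultures per tissue, which differ in genotype. A difference between genotypes is also a difference between donor mice.

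ETS proteins share a DNA-binding domain that reads a GGAA core, and many of them are switched by the RAS-RAF-MEK-ERK cascade, either through direct phosphorylation by ERK or through induction of their own genes. The PEA3 group (Etv1, Etv4, Etv5) is held down by the repressor Capicua, which ERK signalling removes from its targets, while Elk3 belongs to the ternary complex factors that bind DNA beside serum response factor. Elf3 and Ehf are epithelium-restricted members tied to intestinal differentiation, Ets1 and Ets2 are founding members with an ERK site near the Pointed domain, and Gabpa is a broadly expressed regulator of housekeeping and mitochondrial genes.

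Library totals were 51174821 to 78175143 counts in COL and 44350747 to 68214835 in SI. Levels are given as CPM, counts scaled to a common library size of 1000000 with TMM factors, and 3 counts in a library correspond to at most 0.0854 CPM. The summed level of 8 epithelial genes was 8786 to 29612 CPM, and that of 11 stromal and immune markers 0.141 to 2.43 CPM, with Dcn, Lum and Adgre1 at 0 in every SI library. The colon marker Car1 was at 1344 CPM or more in COL and at most 0.265 CPM in SI. Hoxb13 (at most 0.440 CPM) and Hoxd13 (at most 0.0552 CPM) had medians of 0 in COL, and were at 0 in every SI library. The SI factor Gata4 was at 32.3 CPM or more in the COL BRAF culture against at most 2.62 CPM in the other COL cultures. Of the SI list, Lyz1 was higher in COL, at 230 to 1771 CPM against 40.1 to 149 CPM in SI, and Defa24 had medians of 150 CPM in COL and 81.4 CPM in SI. The Y-linked Ddx3y was at 33.1 CPM or more in all COL and SI BRAF libraries, and at most 0.0633 CPM in SI p53 and SI BRAFp53, so that the SI and COL cultures of these 2 genotypes differed in sex-linked RNA, while the study's methods name 1 donor mouse per genotype. SI BRAF on replicate 1 stood apart, with Xist at 17.0 CPM where the other 3 libraries of that culture had at most 0.475 CPM and the SI p53 and SI BRAFp53 libraries 113 to 164 CPM. Whether it holds RNA of another culture was not tested. Onecut2 was at 22.7 CPM in it, 5.92 CPM in on replicate 2 and 15.6 and 18.3 CPM in the off libraries. Over all SI libraries the Onecut2 median was 131 CPM and the highest level 205 CPM. The summed level of 4 colon genes was 9.99 to 11.7 CPM in SI BRAF, against 0.540 to 3.77 CPM in the other SI cultures. Whether this bears on the responses of SI BRAF was not tested. For each member, the SI BRAF change or its adjusted p is also given without SI BRAF on replicate 1. Trp53 averaged 418 CPM in COL p53 on against 218 CPM off, and 267 against 157 CPM in SI.

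Without induction, 5 of the 9 ETS genes had higher levels in COL than in SI and 0 had lower ones, by an edgeR quasi-likelihood test on 3 cultures per tissue with Benjamini-Hochberg adjustment. Of 17789 genes tested in this comparison 29.6% passed, 17.0% as higher and 12.6% as lower in COL. Median log2 differences were 1.55 over the 9 members and 0.08 over all genes. Fewer cells of a type and less RNA per cell cannot be told apart in these bulk libraries. Medium and day also differed between off COL and off SI, and in p53 and BRAFp53 so did sex-linked RNA. The test does not separate these from the tissue.

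Elk3 and Ets1 differed most. Elk3 (ENSMUSG00000008398, chromosome 10, 93247414 to 93311135, minus strand, GRCm38) was at 2.52 and 3.68 CPM in COL BRAF off, 6.71 and 8.53 in COL p53 off, and 4.66 and 5.94 in COL BRAFp53 off. The 6 SI off libraries held between 1 and 13 Elk3 counts each, at most 0.295 CPM, and no SI library overlapped a COL library. The COL minus SI difference was 5.68 ± 0.75 on the log2 scale (SE; edgeR adjusted p = 0.00330). Ets1 (ENSMUSG00000032035, chromosome 9, 32636221 to 32757820, plus strand) was at 22.4 and 23.3 CPM in COL p53 off, 19.8 and 25.7 in COL BRAFp53 off, but only 5.53 and 6.22 in COL BRAF off. In SI off libraries it lay between 0.303 and 1.21 CPM. All COL values were above all SI values, with a difference of 4.51 ± 0.59 (edgeR adjusted p = 0.00325), and the low COL culture was the one that also held Gata4 RNA; whether the 2 observations are linked was not tested.

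The other 3 members that passed were Etv1, Ehf and Ets2. Etv1 ranged from 0.517 to 2.29 CPM in off COL libraries and from 0.0319 to 0.636 CPM in off SI libraries, a log2 difference of 2.35 ± 0.58 (edgeR adjusted p = 0.0236). Its groups overlapped, since 1 COL BRAFp53 library at 0.517 CPM was below 2 SI libraries, and the call was lost with genotype as a block (0.0599) and without the COL BRAFp53 (adjusted p = 0.0567), COL p53 (0.0591) or SI BRAFp53 culture (0.0526). Ehf was 1.62 ± 0.22 higher (edgeR adjusted p = 0.00348) and Ets2 1.55 ± 0.27 higher in COL (edgeR adjusted p = 0.00770). For Elf3 the off levels were 692 to 1637 CPM in COL and 616 to 733 CPM in SI, and the difference of 0.76 ± 0.26 did not pass (edgeR adjusted p = 0.0616), although it passed without the COL BRAFp53 culture, the lowest of the COL cultures (0.99, adjusted p = 0.0191), with DESeq2 (0.74, adjusted p = 0.0376) and with total counts (adjusted p = 0.0165). Etv4 (0.42 ± 0.21), Etv5 (-0.05 ± 0.26) and Gabpa (-0.20 ± 0.17) did not pass either.

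Set against the rest of the family per kilobase of exon, Elf3 was by far the most abundant ETS transcript. Its median over off libraries was 545 CPM per kb in COL and 301 CPM per kb in SI, and it made up 63.6 to 81.9% (COL) and 77.9 to 81.8% (SI) of the summed per-length level of 26 ETS genes. Ehf followed with 63.5 and 20.1 CPM per kb. Ets2 came next in COL (26.8 CPM per kb), whereas in SI Elf1, which is not among the 9 genes, stood between Ehf and Ets2 (9.84 against 8.97 CPM per kb). Gabpa, Etv4 and Etv5 lay between 2.56 and 5.46 CPM per kb in both tissues. Ets1 (2.49 in COL, 0.0829 in SI), Elk3 (1.16 and 0.0151) and Etv1 (0.0924 and 0.0101) were the least abundant members. Together the 9 members made up 88.6 to 94.2% of the family's per-length level in COL libraries and 87.6 to 91.3% in SI libraries.

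**Figure D1:**
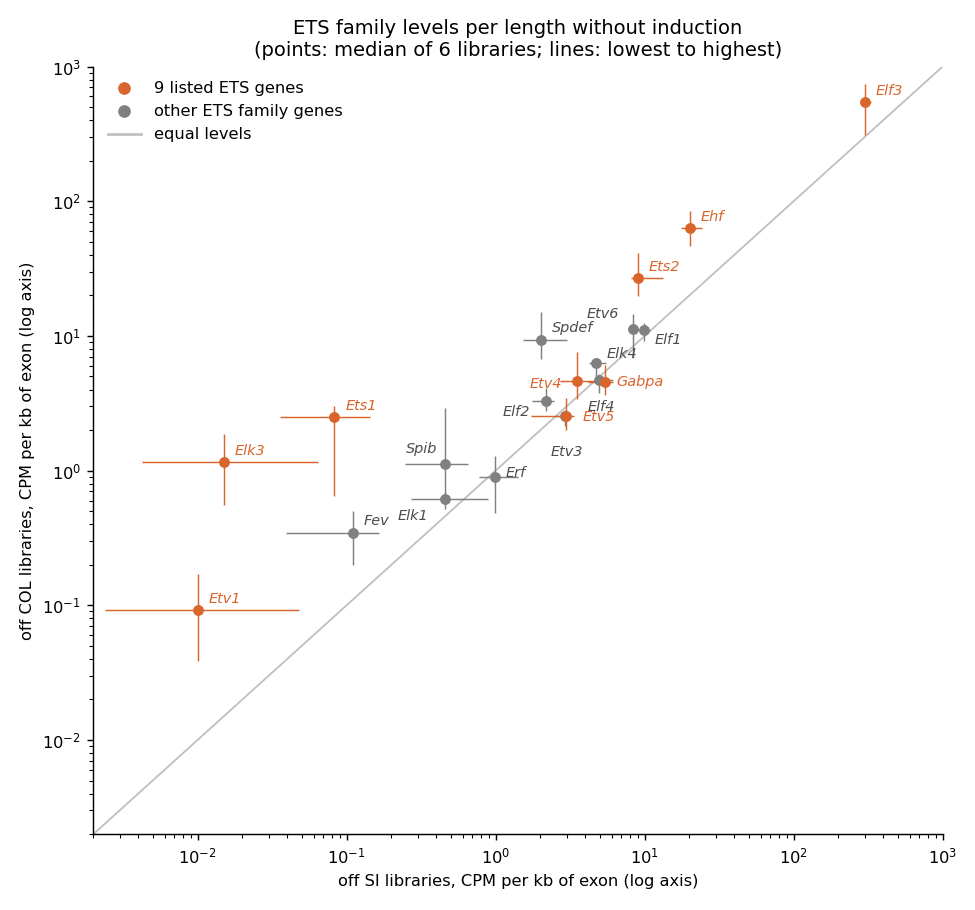
Level of each ETS gene in off COL libraries (vertical, CPM per kb of exon, log axis) against off SI libraries (horizontal, same unit, log axis), for the 20 of 26 ETS genes counted in every off library. Points are medians of 6 libraries and lines run from the lowest to the highest. Elf3 stands at the top in both tissues, and Elk3, Ets1 and Etv1 lie far above the line of equal levels.

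Upon induction, 2 of the 9 genes rose and 1 fell in COL BRAF, where 10.3% of 18972 genes rose and 9.61% fell (19.9% in all). In COL BRAFp53 4 rose and 1 fell, against 9.95% and 7.76% of all genes (17.7%). In SI BRAF 0 rose and 1 fell, against 17.5% and 14.2% of 16856 genes (31.7%), and in SI BRAFp53 2 rose and 0 fell, against 6.98% and 4.53% (11.5%). In the p53 cultures 0 of 9 passed, in COL where 0.142% of genes did and in SI where 0% did. Members that rose were Etv4, Etv5, Elk3 and Elf3, and those that fell were Elf3, Ets2 and Ehf, with Elf3 in opposite directions in COL BRAF and COL BRAFp53. The share called in SI BRAF, 1 of 9, was below that of all genes, and with 9 genes a single call moves such a share widely. The members' median log2 change lay between -0.01 and 0.28 in the 6 cultures, against -0.06 to 0.00 for all genes.

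**Figure D2:**
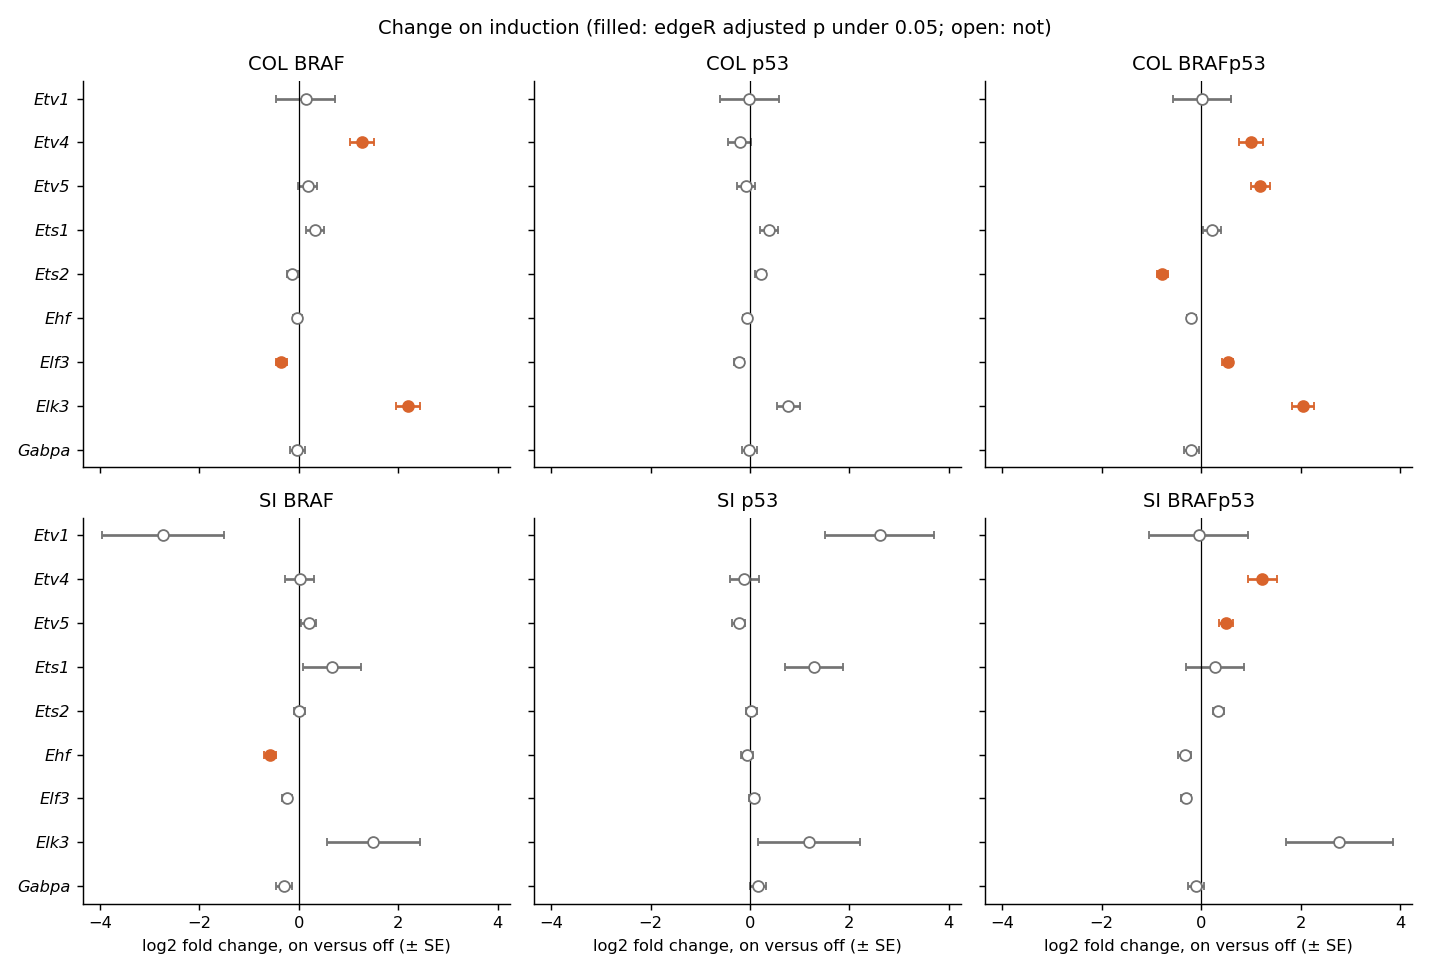
Log2 fold change on induction (horizontal, on versus off, with its SE) of the 9 ETS genes in 3 COL cultures (top) and 3 SI cultures (bottom). Filled points passed an edgeR adjusted p of 0.05 and open points did not. Elk3 stands at 2.20 and 2.05 in the COL cultures with BRAFV600E, and the wide bars in SI belong to Etv1, Ets1 and Elk3, which had few counts there.

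Of the PEA3 group, Etv4 responded in 3 of the 4 cultures in which BRAFV600E was induced. Etv4 (ENSMUSG00000017724, chromosome 11, 101769742 to 101785371, minus strand) was at 17.8 and 14.3 CPM in COL BRAF off and at 34.7 and 42.5 CPM in COL BRAF on. The groups did not overlap, and Etv4 rose 2.41-fold (log2 1.27 ± 0.24 SE, edgeR adjusted p = 0.00367). In COL BRAFp53 it went from 14.3 and 23.6 CPM to 35.1 and 44.4 CPM, a rise of 1.01 ± 0.24 (edgeR adjusted p = 0.0140). This call was lost without off replicate 1 (0.69, adjusted p = 0.0888) or on replicate 2 (0.84, adjusted p = 0.0847). Its off libraries lay far apart. In SI BRAFp53, Etv4 was at 9.99 and 15.0 CPM off and 26.8 and 32.4 CPM on, and rose by 1.23 ± 0.29 (edgeR adjusted p = 0.0147). This call too was lost without off replicate 1 (0.96, adjusted p = 0.138) or on replicate 2 (1.09, adjusted p = 0.105).

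In SI BRAF, by contrast, Etv4 was at 8.34 and 11.8 CPM off and 11.3 and 9.59 CPM on. The groups overlapped, and the log2 change of 0.02 ± 0.29 did not pass (edgeR adjusted p = 0.964; -0.08, adjusted p = 0.913, without SI BRAF on replicate 1). The difference between the SI BRAFp53 and SI BRAF responses of Etv4 was 1.20 ± 0.41 (edgeR adjusted p = 0.0964) and that between the COL BRAF and SI BRAF responses also 1.20 ± 0.41 (adjusted p = 0.0728), so neither passed. With no filter on low counts these became 1.22 (adjusted p = 0.000379) and 1.21 (adjusted p = 0.000420). Of all genes, 2044 and 2580 passed there, against 1383 and 2108 with the filter. With DESeq2, which called 2084 and 2900 genes, the Etv4 differences were 1.18 (0.0264) and 1.19 (0.0297). Without SI BRAF on replicate 1 they were 1.32 (adjusted p = 0.0808) and 1.31 (adjusted p = 0.104). In COL p53, Etv4 was at 13.8 and 10.6 CPM off and 11.5 and 9.52 CPM on, and in SI p53 at 16.6 and 8.47 CPM off and 12.8 and 10.5 CPM on. The on and off libraries overlapped in both, with log2 changes of -0.21 ± 0.24 and -0.11 ± 0.29. Over the 12 groups, the 3 on groups that rose were the highest, at means of 39.8, 38.6 and 29.6 CPM, and the step from the lowest of them to the next group was the only one larger than the summed SDs of its neighbours.

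Etv5, the closest relative of Etv4 in this list, passed in both BRAFp53 cultures. Etv5 (ENSMUSG00000013089, chromosome 16, 22381309 to 22439719, minus strand) was at 9.09 and 8.29 CPM in COL BRAFp53 off and 18.3 and 23.0 CPM on, and rose 2.29-fold (log2 1.19 ± 0.19, edgeR adjusted p = 0.00139). In SI BRAFp53 it went from 12.1 and 12.3 CPM to 17.4 and 18.0 CPM, a rise of 0.51 ± 0.14 (edgeR adjusted p = 0.0369). This call held under 5 of 7 other settings of scaling, filter, tool or block. Replicate number as a block was among those that lost it. The COL and SI responses differed by 0.65 ± 0.23, which did not pass (edgeR adjusted p = 0.141), while DESeq2 gave 0.70 (adjusted p = 0.0390). The SI call did not survive leaving out any 1 of its 4 libraries (adjusted p from 0.115 to 0.202), although the groups were well apart. In COL BRAF it was at 14.3 and 10.4 CPM off and 13.7 and 14.1 CPM on, where the change was 0.18 ± 0.19 (adjusted p = 0.578). In SI BRAF, with 8.34 and 7.13 CPM off and 9.16 and 8.94 CPM on, it was 0.20 ± 0.15 (adjusted p = 0.342, and 0.478 without SI BRAF on replicate 1). The COL BRAFp53 response of Etv5 exceeded the COL BRAF response by 1.02 ± 0.27, which did not pass (edgeR adjusted p = 0.0819), while DESeq2 gave 1.03 (adjusted p = 0.0106). The SI BRAFp53 and SI BRAF responses differed by 0.31 ± 0.21, which did not pass either (edgeR adjusted p = 0.409, and 0.453 without SI BRAF on replicate 1). In the off state, the COL BRAFp53 libraries had the lowest Etv5 of the COL cultures. Induction of p53R172H alone left Etv5 at 12.1 and 10.6 CPM off and 11.6 and 9.96 CPM on in COL (-0.08 ± 0.19), and at 13.4 and 13.8 CPM off and 11.7 and 11.6 CPM on in SI (-0.23 ± 0.14). The SI libraries did not overlap, but the change did not pass.

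Capicua represses this group through octamers that begin with TGAATG, and the promoter windows of the members were searched for these letters. RefSeq promoter sequences (GRCm38.p6) were given for 6 of the 9 members, in 8 windows, and not for Etv4, Ets1 and Ehf. The window of 250 bases before the second Etv5 start, which lies within the annotated gene and holds 0 exonic bases, has 3 matches to TGAATG, on either strand. Of 32851 such windows of 27025 genes, 10.9% hold at least 1 match and 0.131% hold 3 or more. The hexamer was chosen after this sequence had been seen, so its share of windows is no test. Neither of the octamers TGAATGAA (1.08% of windows) and TGAATGGA (1.01%) is in a member's window. The window, chr16:22438369-22438618 on the minus strand, is shown because Etv5 rose in both BRAFp53 cultures, with the matches in capitals.
Etv5: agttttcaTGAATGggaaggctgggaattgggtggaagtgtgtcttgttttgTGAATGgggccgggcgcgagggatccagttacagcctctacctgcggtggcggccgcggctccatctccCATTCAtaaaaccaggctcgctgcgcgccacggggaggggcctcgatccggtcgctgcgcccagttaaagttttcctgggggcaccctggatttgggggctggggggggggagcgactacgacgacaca
Which Etv5 start was used in these organoids cannot be read from counts per gene, and a match is a description of the letters only.

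Etv1, the other PEA3 gene (ENSMUSG00000004151, chromosome 12, 38779380 to 38870484, plus strand), had 38 to 167 counts in a COL library and 2 to 33 in an SI library. In COL it was at 0.766 and 1.58 CPM in BRAF off, 1.25 and 1.32 in BRAF on, 1.70 and 0.517 in BRAFp53 off, 1.15 and 1.16 in BRAFp53 on, 2.29 and 0.875 in p53 off, and 1.48 and 1.66 in p53 on. The on libraries lay within the range of the off libraries in each culture. Its log2 changes in COL were between -0.01 and 0.14 with SEs of 0.59, an error wide enough that a change of the size seen for Etv4 could have been missed. In SI, the summed counts of 2 libraries were 32 off and 4 on in BRAF, 10 off and 58 on in p53, and 37 off and 37 on in BRAFp53. None of these passed (edgeR adjusted p of 0.107, 0.899 and 0.987), although the on to off ratios, with 95% exact intervals for counting error only, were 0.157 (0.0403 to 0.442), 6.25 (3.17 to 13.7) and 0.945 (0.583 to 1.53). The off libraries of 1 culture differed as much, with 33 and 4 counts in SI BRAFp53. Without SI BRAF on replicate 1 the change in SI BRAF was -2.54 (adjusted p = 0.281).

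Elk3 had the largest response of the 9 genes among those called. Elk3 was at 2.52 and 3.68 CPM in COL BRAF off and 15.0 and 13.5 CPM in COL BRAF on, and rose 4.60-fold (log2 2.20 ± 0.24, edgeR adjusted p = 0.000109). In COL BRAFp53 it went from 4.66 and 5.94 CPM to 22.3 and 23.1 CPM, a 4.13-fold rise (2.05 ± 0.23, edgeR adjusted p = 0.000187). On and off libraries were far apart in both, and both calls held without any 1 library, with log2 changes of at least 1.95 and 1.87. The 2 responses differed by -0.15 ± 0.32 (adjusted p = 0.850), and the interval of 2 SE, -0.80 to 0.49, leaves room for a difference of either sign.

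Elk3 was also the member that came nearest to passing in the COL p53 culture, with 6.71 and 8.53 CPM off and 14.9 and 11.1 CPM on. Its groups did not overlap, but the change of 0.77 ± 0.23 did not pass (edgeR adjusted p = 0.287). With DESeq2 it was 0.79 (adjusted p = 0.0439), and with no filter on low counts 0.77 (adjusted p = 0.0340). These settings called 321 and 569 of all genes in COL p53, against 27 by edgeR with the filter. In SI, Elk3 had 22 counts off and 53 on in BRAF, 7 and 16 in p53, and 4 and 31 in BRAFp53, each summed over 2 libraries. The ratios were 3.02 (1.81 to 5.22), 2.46 (0.958 to 7.08) and 7.32 (2.59 to 28.5), with intervals for counting error only. None passed the test (edgeR adjusted p of 0.124 or more; 0.462 in BRAF without SI BRAF on replicate 1). The COL and SI responses of Elk3 differed by 0.63 ± 0.58 (adjusted p = 0.585) in BRAF (0.75, adjusted p = 0.617, without that library) and -0.78 ± 0.79 (adjusted p = 0.679) in BRAFp53. On the order of group means, COL BRAFp53 on was first (22.7 CPM), above COL BRAF on (14.3) and COL p53 on (13.0), which lay within each other's spread, and 6 of the 11 steps exceeded the spread.

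The exons of Elk3 share 316 bases with Cdk17 on the other strand, and reads there cannot be assigned without strand. The window before the Elk3 start, chr10:93311160-93311409 on the minus strand, is shown for comparison with that of Etv5 because Elk3 rose most. It holds none of the letters searched, which were TGAATG, the ETS forms CCGGAAG (6.91% of windows) and AGGAAGT (7.69%), the AP-1 form TGANTCA (6.75%) and the CRE form TGACGTCA (1.55%), on both strands.
Elk3: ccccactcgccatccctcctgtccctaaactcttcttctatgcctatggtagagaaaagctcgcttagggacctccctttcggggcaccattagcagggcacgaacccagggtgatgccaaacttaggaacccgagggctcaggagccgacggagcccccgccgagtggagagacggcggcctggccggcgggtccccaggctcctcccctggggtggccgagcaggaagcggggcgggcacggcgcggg
Of the 8 member windows, the ETS forms were found in that of Gabpa, once each.

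**Figure D3:**
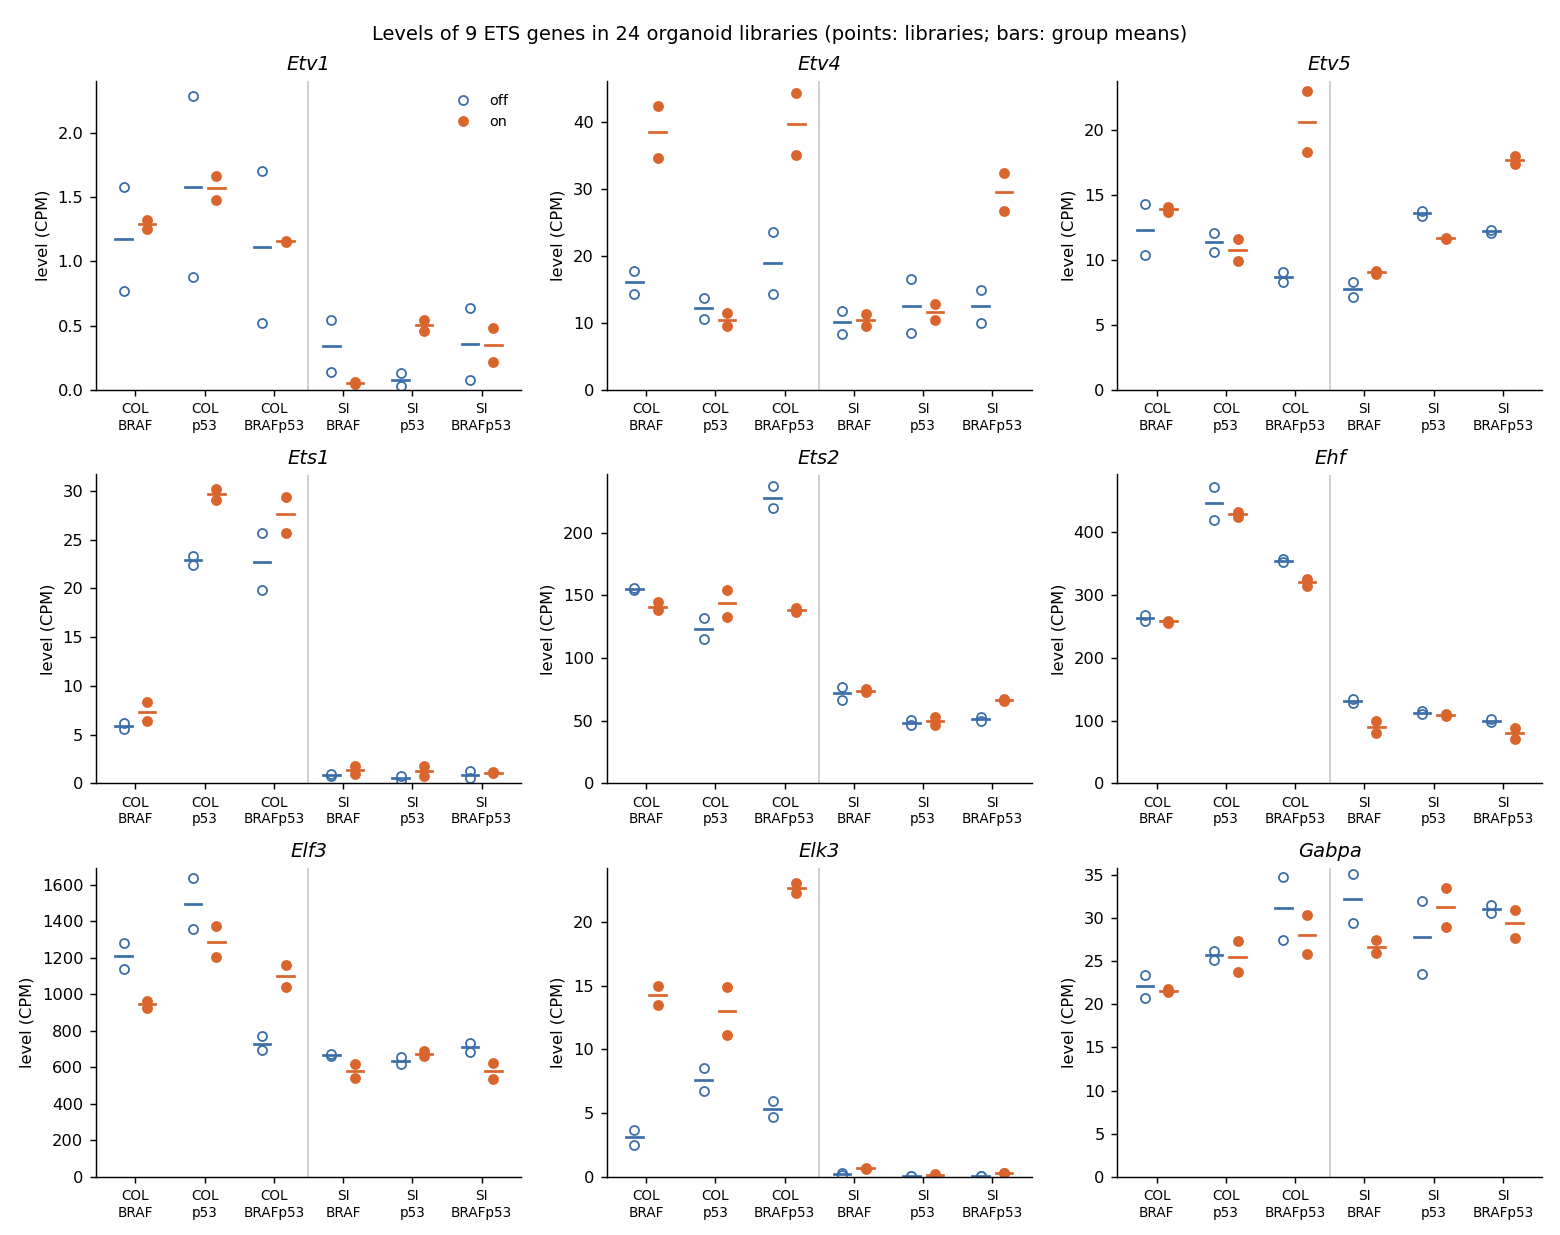
Level of each ETS gene (vertical, CPM, from 0) in the 6 cultures (horizontal), with 2 off libraries (open) and 2 on libraries (filled) each and bars at the group means. Etv4 and Elk3 rise in both COL cultures with BRAFV600E, Ets2 falls in COL BRAFp53 from 228 to 138 CPM, and Ets1, Elk3 and Etv1 lie close to 0 in SI.

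Elf3, the main ETS transcript of these organoids, moved in opposite directions in the COL cultures with BRAFV600E. Elf3 (ENSMUSG00000003051, chromosome 1, 135253575 to 135258568, minus strand) was at 1279 and 1138 CPM in COL BRAF off and 964 and 924 CPM on, and fell by 0.35 ± 0.11 on the log2 scale (edgeR adjusted p = 0.0445). In COL BRAFp53 it was at 769 and 692 CPM off and 1163 and 1041 CPM on, and rose by 0.54 ± 0.11 (edgeR adjusted p = 0.00638). Groups did not overlap in either culture. The fall passed under 6 of 7 other settings of scaling, filter, tool or block, with adjusted p of at most 0.0531. The fall did not pass without any 1 of its 4 libraries (log2 change from -0.43 to -0.27, adjusted p from 0.0675 to 0.258), while the rise held without 3 of 4 and reached an adjusted p of 0.0522 without off replicate 2.

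The difference between these 2 responses was itself tested, and Elf3 was the 1 member of 9 that passed (0.907% of 18972 genes did). It was 0.90 ± 0.16 (edgeR adjusted p = 0.0404), a ratio of 1.86 between the responses, and it was 0.82 to 0.98 without any 1 library. It still passed without COL BRAFp53 off replicate 1 (adjusted p = 0.0397) or on replicate 1 (0.0499), and was lost without any of the other 6 libraries (adjusted p from 0.0543 to 0.151). With replicate number as a block the difference did not pass (edgeR adjusted p = 0.0551). Off levels differed at the outset, with means of 1209 CPM in COL BRAF and 730 CPM in COL BRAFp53, whereas on levels of 944 and 1102 CPM were closer. In COL p53, Elf3 was at 1637 and 1355 CPM off and 1372 and 1204 CPM on (-0.22 ± 0.11, adjusted p = 0.669), and in SI p53 at 616 and 655 CPM off and 660 and 688 CPM on (0.08 ± 0.10). In SI, Elf3 was at 660 and 672 CPM off and 618 and 541 CPM on in BRAF (-0.23 ± 0.10, adjusted p = 0.113, and -0.31, adjusted p = 0.0689, without SI BRAF on replicate 1). In SI BRAFp53 it was at 733 and 686 CPM off and 623 and 537 CPM on (-0.31 ± 0.10, adjusted p = 0.0749), and limma-voom (0.0472) and DESeq2 (0.0483) passed it. The COL and SI responses in BRAFp53 differed by 0.81 ± 0.16 (edgeR adjusted p = 0.00718), an increase in COL beside a negative change in SI. Without SI BRAFp53 on replicate 2 the difference was 0.70 and did not pass (adjusted p = 0.0521). Elf3 shares 162 exonic bases with the antisense gene Gm26642, and the strand setting of the counting is not given in the sources used here.

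Ehf, the other epithelium-restricted member, fell in SI BRAF and did not pass in the other 5 cultures. Ehf (ENSMUSG00000012350, chromosome 2, 103263433 to 103303278, minus strand) was at 128 and 135 CPM in SI BRAF off and 99.7 and 79.9 CPM on, and fell by 0.58 ± 0.13 (edgeR adjusted p = 0.00435). The library that stood apart had the higher of the on values, and without it Ehf fell by 0.73 (adjusted p = 0.00142). In SI BRAFp53, Ehf was at 97.5 and 102 CPM off and 88.8 and 71.3 CPM on, a change of -0.33 ± 0.13 that did not pass (adjusted p = 0.126). In COL BRAF it was at 258 and 268 CPM off and 259 and 256 CPM on (-0.03 ± 0.09, adjusted p = 0.883). In COL BRAFp53 it was at 357 and 352 CPM off and 315 and 325 CPM on (-0.20 ± 0.09, adjusted p = 0.157). The p53 cultures had overlapping libraries, with 420 and 472 CPM off and 424 and 433 CPM on in COL, and close ones in SI, with 115 and 110 CPM off and 110 and 107 CPM on (-0.06 in both).

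Ehf was the 1 member whose BRAF response passed as different between COL and SI (10.7% of 19673 genes passed). The difference of 0.51 ± 0.16 (edgeR adjusted p = 0.0412) was lost without any 1 library other than SI BRAF on replicate 1, with adjusted p from 0.0820 to 0.166, and was 0.67 (adjusted p = 0.0127) without that one. In the order of group means, the 6 COL groups, from 446 CPM in p53 off to 258 CPM in BRAF on, were all above the 6 SI groups, and in COL the step between cultures (446, 354 and 263 CPM off) was wider than that between on and off. With total counts in place of TMM factors, the median of all genes in SI BRAF moved from -0.06 to -0.35. The change of Elf3 there moved from -0.23 to -0.52 (adjusted p = 0.00116) and that of Gabpa from -0.30 to -0.59 (adjusted p = 0.00727), about as far as that median.

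Of the 6 cultures, Ets2 passed the test in COL BRAFp53. Ets2 (ENSMUSG00000022895, chromosome 16, 95702075 to 95721051, plus strand) was at 220 and 237 CPM in COL BRAFp53 off, the highest of the 12 groups, and 140 and 137 CPM on. The groups were far apart and Ets2 fell by 0.78 ± 0.11 on the log2 scale (edgeR adjusted p = 0.000691), to 0.583 of the off level, and this held without any 1 library. In COL BRAF it was at 154 and 156 CPM off and 145 and 138 CPM on (-0.13 ± 0.11, adjusted p = 0.469). In COL p53, with 115 and 132 CPM off and 133 and 154 CPM on, the change was 0.22 ± 0.11 (adjusted p = 0.630). The BRAFp53 and BRAF responses in COL differed by -0.65 ± 0.15 (edgeR adjusted p = 0.0663), and by -0.64 with DESeq2 (adjusted p = 0.00541).

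In SI BRAFp53 the value of Ets2 was positive. It was at 53.2 and 49.8 CPM off and 65.8 and 67.0 CPM on, a change of 0.35 ± 0.11 that did not pass (edgeR adjusted p = 0.0677; DESeq2 0.0198). The COL minus SI difference of the BRAFp53 responses was -1.16 ± 0.15 (edgeR adjusted p = 0.000299), the smallest adjusted p of Ets2 in any comparison, and it held without any 1 library (-1.21 to -1.09). Elf3 and Ets2 were the 2 of 9 members called in this comparison, in which 3.52% of 19673 genes passed. In SI BRAF, Ets2 was at 66.7 and 76.7 CPM off and 72.5 and 75.0 CPM on (0.01 ± 0.11, and 0.06 without on replicate 1), and in SI p53 at 48.5 ± 2.74 CPM off and 49.7 ± 4.69 CPM on (mean ± SD, n = 2 libraries each; log2 change 0.03 ± 0.11 SE). In COL the on means were close in BRAF, BRAFp53 and p53 (141, 138 and 144 CPM), while the off means ran from 123 to 228 CPM.

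Ets1, the closest relative of Ets2, did not pass in any of the 6 cultures. It was at 5.53 and 6.22 CPM in COL BRAF off and 6.36 and 8.36 CPM on (0.33 ± 0.18, edgeR adjusted p = 0.251). In COL p53 it was at 22.4 and 23.3 CPM off and 29.1 and 30.2 CPM on (0.38 ± 0.18, adjusted p = 0.607), and in COL BRAFp53 at 19.8 and 25.7 CPM off and 25.7 and 29.4 CPM on (0.22 ± 0.18, adjusted p = 0.422). On libraries were above off libraries in BRAF and p53, and 1 on and 1 off library of BRAFp53 were level. In SI the summed counts of Ets1 were 87 off and 113 on in BRAF, 63 and 149 in p53, and 92 and 119 in BRAFp53, with SEs of 0.58 to 0.59 on the log2 scale. The log2 change in SI BRAF was 0.66 (adjusted p = 0.427) and 0.19 (adjusted p = 0.893) without SI BRAF on replicate 1, which held the higher of the on values. The COL BRAF libraries, with at most 8.36 CPM, lay below those of the other COL cultures, with at least 19.8 CPM.

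Gabpa (ENSMUSG00000008976, chromosome 16, 84834925 to 84863779, plus strand) did not pass in any of the 11 comparisons by edgeR with TMM factors, while total counts in their place gave -0.59 in SI BRAF (adjusted p = 0.00727). It lay between 20.7 and 34.8 CPM in COL and between 23.5 and 35.1 CPM in SI, and none of the 11 steps in the order of its group means exceeded the spread of its neighbours. Its log2 changes in the 6 cultures were between -0.30 and 0.16 with SEs of 0.15 to 0.16, and none passed (adjusted p of 0.175 or more), also not in SI BRAF without on replicate 1 (-0.24, adjusted p = 0.421). In COL it was at 23.4 and 20.7 CPM in BRAF off, 21.4 and 21.8 in BRAF on, 34.8 and 27.5 in BRAFp53 off, and 30.4 and 25.8 in BRAFp53 on. In SI it was at 35.1 and 29.4 CPM in BRAF off, 26.0 and 27.5 in BRAF on, 30.6 and 31.5 in BRAFp53 off, and 31.0 and 27.7 in BRAFp53 on. On and off libraries overlapped in each of these cultures but SI BRAF. Gabpa shares 397 exonic bases with Atp5j on the other strand. In the comparison of the SI BRAFp53 and SI BRAF responses 0 of 9 members passed by edgeR (8.20% of genes did), with 1 at an unadjusted p under 0.05, 1 call by DESeq2 and 0 by limma-voom.

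The differences between responses that are not given above did not pass by edgeR. Between COL BRAFp53 and COL BRAF they were -0.12 ± 0.84 for Etv1, -0.25 ± 0.34 for Etv4, -0.10 ± 0.25 for Ets1, -0.17 ± 0.13 for Ehf and -0.17 ± 0.21 for Gabpa (edgeR adjusted p of 0.505 or more). Between SI BRAFp53 and SI BRAF they were 2.68 ± 1.58 for Etv1, -0.38 ± 0.82 for Ets1, 0.34 ± 0.16 for Ets2, 0.24 ± 0.18 for Ehf, -0.08 ± 0.15 for Elf3, 1.28 ± 1.38 for Elk3 and 0.20 ± 0.22 for Gabpa (adjusted p of 0.236 or more, and 0.171 or more without SI BRAF on replicate 1). The wide errors belong to the members with few counts in SI. Between COL and SI, the BRAF responses differed by 2.84 ± 1.35 for Etv1, -0.06 ± 0.24 for Etv5, -0.37 ± 0.54 for Ets1, -0.18 ± 0.15 for Ets2, -0.17 ± 0.16 for Elf3 and 0.23 ± 0.23 for Gabpa (adjusted p of 0.210 or more, and 0.411 or more without that library). Without it the Ets1 differences were 0.11 within SI and 0.12 between tissues, and the Elf3 difference within SI was 0.01, so that their signs rested on it. The BRAFp53 responses differed between COL and SI by 0.04 ± 1.14 for Etv1, -0.25 ± 0.41 for Etv4, -0.09 ± 0.53 for Ets1, 0.10 ± 0.16 for Ehf and -0.14 ± 0.23 for Gabpa (adjusted p of 0.838 or more).

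In the p53 cultures, 0 of 9 members passed by edgeR in either tissue. At an unadjusted p under 0.05 there was 1 member in COL (Elk3) and 2 in SI (Etv1 and Ets1, both with few counts). DESeq2 called 1 in COL and 0 in SI, and limma-voom 0 in each.

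Of 17 other ETS genes, 11 were counted well enough to test in each tissue, and Erg, Fli1, Spi1, Spic, Etv2 and Elf5 were at or near 0. In COL BRAF 3 of the 11 rose and 0 fell, with Etv3, a repressor (0.85 ± 0.13, edgeR adjusted p = 0.000912), Spdef, a secretory lineage factor (0.69 ± 0.18, adjusted p = 0.0188), and Elf4 (0.49 ± 0.15, adjusted p = 0.0352), where 10.3% of all genes rose and 9.61% fell. In COL BRAFp53, where 17.7% of all genes passed, Spdef rose (1.16 ± 0.18, edgeR adjusted p = 0.00124) while Etv6 (-0.58 ± 0.12) and Elf2 (-0.42 ± 0.12) fell. In SI BRAFp53, where 11.5% of all genes passed, Spdef alone of the 11 rose, from 4.11 and 5.23 CPM to 14.1 and 17.0 CPM (1.72 ± 0.20, edgeR adjusted p = 0.000102), a larger change than that of any of the 9 members called in SI. In SI BRAF, Elf4 rose (0.48 ± 0.17), and Spib, Etv6 (-0.78 ± 0.13) and Elf2 (-0.48 ± 0.17) fell, 4 of 11 where 31.7% of all genes passed. Spib, which marks M cells and lymphoid cells, had 123 counts off and 2 on, a ratio of 0.0204 with a 95% exact counting interval of 0.00244 to 0.0753. Without SI BRAF on replicate 1 the same 4 genes passed. None passed in the p53 cultures by edgeR.

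Genes known to be induced by ERK were read in the same libraries, in which the activity of the cascade itself was not measured. Of 8 such genes, 6 rose in COL BRAF, 4 in COL BRAFp53, 5 in SI BRAFp53 and 3 in SI BRAF, where 2 fell, and 0 passed in the p53 cultures by edgeR. Of all genes, 10.3%, 9.95%, 6.98% and 17.5% rose in these 4 cultures, and 14.2% fell in SI BRAF. Without SI BRAF on replicate 1, 2 rose and 2 fell in SI BRAF, and Spry4 was not among them. The phosphatase gene Dusp6 went from 7.70 and 9.89 CPM to 72.6 and 81.4 CPM in SI BRAF (3.10 ± 0.18, edgeR adjusted p = 9.78e-08, and 3.20 without on replicate 1), the culture in which Etv4 and Etv5 did not pass. In SI BRAFp53 the Dusp6 change was 1.90 ± 0.17 (edgeR adjusted p = 1.05e-05), and the 2 SI responses differed by -1.20 ± 0.24 (adjusted p = 0.00775, and -1.28 without that library). Spry4, a feedback inhibitor, rose by 3.04 ± 0.35 in COL BRAF, 2.72 ± 0.34 in COL BRAFp53, 2.25 ± 0.38 in SI BRAFp53 and 1.09 ± 0.38 in SI BRAF (1.24, adjusted p = 0.0522, without that library). Epha4 (-1.09 ± 0.34) and Ccnd1 (-0.65 ± 0.15) fell in SI BRAF, with -1.32 and -0.88 without it. The median log2 changes of the 8 genes were 1.36, 0.86, 1.16 and 0.24 in COL BRAF, COL BRAFp53, SI BRAFp53 and SI BRAF.

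Of 8 partners and regulators of the members (the Gabpa partners Gabpb1 and Gabpb2, Srf, Cic with Atxn1 and Atxn1l, and the ubiquitin ligase genes Cop1 and Det1), 2 rose in COL BRAF, which were Atxn1 (0.68 ± 0.18, edgeR adjusted p = 0.0170) and Cop1 (0.47 ± 0.14, adjusted p = 0.0325), where 19.9% of all genes passed. In SI BRAF, where 31.7% did, Atxn1, which encodes a protein bound to Capicua, rose (0.71 ± 0.17, edgeR adjusted p = 0.00617) and Gabpb1 fell (-0.55 ± 0.19, adjusted p = 0.0397), and without SI BRAF on replicate 1 it was -0.59 (adjusted p = 0.0816). None passed in the BRAFp53 or p53 cultures by edgeR. Epithelial genes also rose: 5 of 8 in COL BRAF, 5 in COL BRAFp53, 5 in SI BRAF and 4 in SI BRAFp53. Of all genes, 10.3%, 9.95%, 17.5% and 6.98% rose in these cultures. The keratin genes Krt8 and Krt19 rose in all 4. In SI BRAF the median log2 change of the 8 genes was 0.50, and 0.59 without on replicate 1. Lyz1 (-1.58 ± 0.22) and Defa24 (-1.26 ± 0.17), which mark Paneth cells but were also present in every COL library, fell in SI BRAF (-1.85 and -1.26 without on replicate 1), the culture in which Ehf fell. Onecut2 was at -0.26 ± 0.38 there and fell by 1.53 without that library. In SI BRAFp53 Defa24 rose (1.31 ± 0.17), whereas Lyz1 (-0.40 ± 0.21) and Mptx2 (-0.03 ± 0.87) did not pass. The colon gene Car1 rose in COL BRAF (1.59 ± 0.27) and COL BRAFp53 (0.94 ± 0.26). The part of these genes in the results for the ETS genes was not tested. Stromal and immune markers with enough counts for the test, 4 for COL and 1 for SI, gave 0 calls by edgeR.

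**Figure D4:**
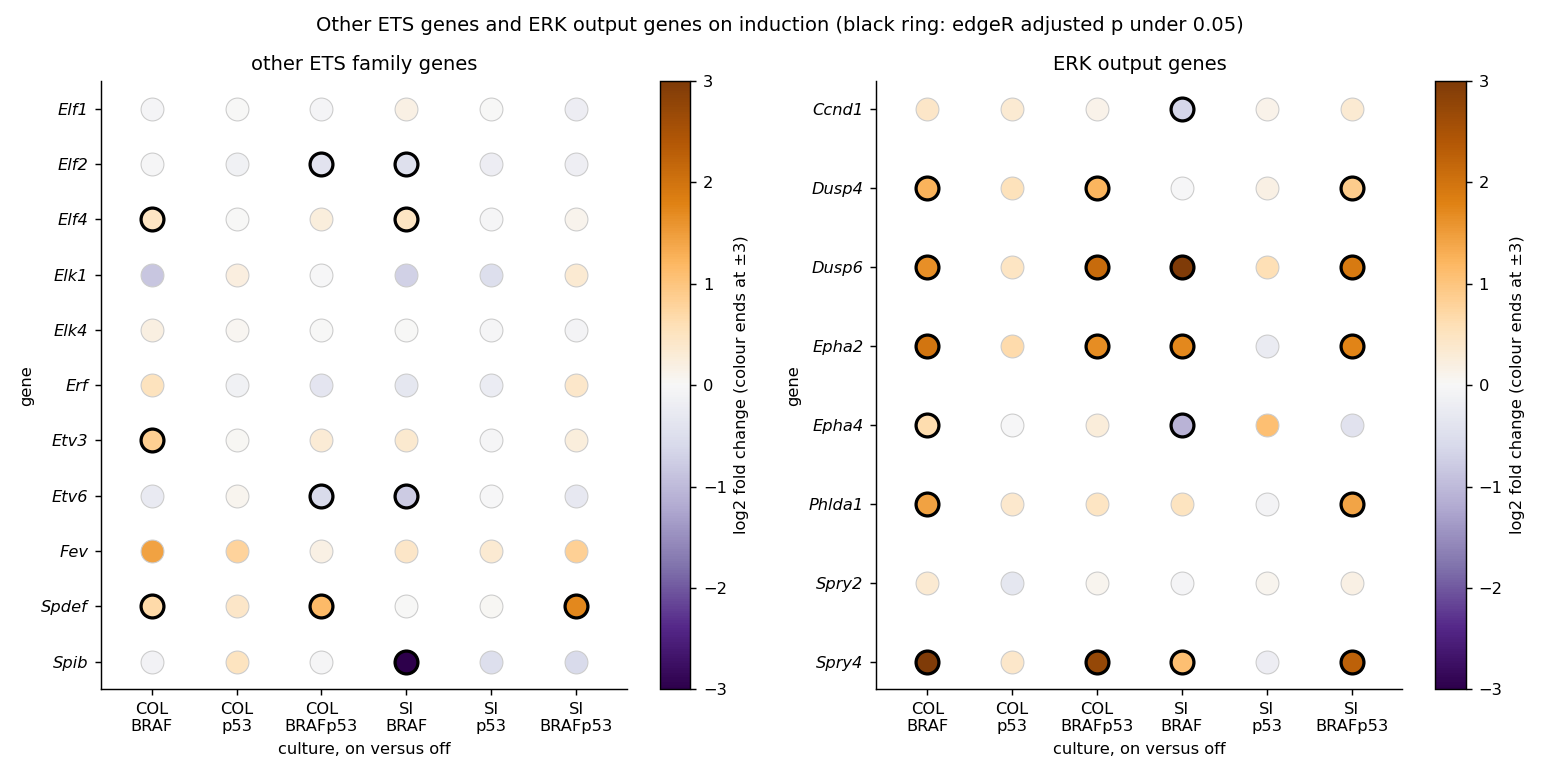
Log2 fold change on induction (colour, ending at 3 in either direction) of the 11 tested other ETS genes (left) and 8 ERK output genes (right), by culture (horizontal) and gene (vertical). A black ring marks an edgeR adjusted p under 0.05. Dusp6, Epha2 and Spry4 are ringed in all 4 cultures with BRAFV600E, and Spdef in 3 of them.

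The genes whose pattern was most like each member's were taken from 13124 genes by Pearson correlation of log2 CPM over the 24 libraries, after subtracting each tissue's mean. These libraries share 6 cultures, so the values describe the patterns and carry no test. Elk3 was most like Dynap (r = 0.95, Spearman's rho = 0.96), Arhgap40 (0.93) and S100a16 (0.93), and Ets1 most like Slc36a4 (0.93), Cdkn2a (0.90) and Tnfrsf11b (0.88). Etv4 was most like Impdh1 (0.86), Etf1 (0.85) and Tspan4 (0.84), and Etv5 most like Tspan4 (0.84), Mthfd2 (0.84) and Scarb2 (0.83), with r = 0.70 between Etv4 and Etv5 themselves. Ets2 was nearest to Jun (0.85), Elf3 to Abhd14b (0.89), and Ehf to Phax (0.90). For Gabpa (Fzd6, 0.75) and Etv1 (Det1, 0.63) the nearest genes were less alike. Among the members, the most negative value was -0.71, between Ets2 and Elf3.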

How the data were processed

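The authors filtered paired-end HiSeq4000 reads with Trimmomatic and aligned them to mm10 with STAR; the submitters' processing notes name Trimmomatic 0.36, STAR 2.5.2b, and also mm9. They deposited raw counts per Ensembl gene, 1 table per tissue, and the annotation release and strand setting are not given in the sources used here. Symbols, coordinates and exon lengths came from GENCODE M21 (GRCm38), which matched 45143 of 45706 identifiers.

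Counts were tested with edgeR 4.0.16 (R 4.3.3): filterByExpr, TMM factors, 1 mean per group over the 12 libraries of a tissue, and a quasi-likelihood test with Benjamini-Hochberg adjustment over all genes tested (threshold 0.05). Tissue differences of responses used all 24 libraries, and off COL against off SI used the summed off counts of each culture, 3 against 3. The study itself used limma; DESeq2 1.42.0 and limma-voom (limma 3.58.1), RLE factors, other filters, a replicate block, total-count scaling and leaving out each library were alternatives. Errors of log2 differences are SEs. Levels are CPM with TMM factors over 24 libraries; intervals and the floor of 3 counts cover counting error only. The fits were tested on simulated data.

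Replicate numbers do not mark a shared batch in the labels, and deviations of same-numbered on and off libraries correlated between -0.06 and 0.08 over the 6 cultures. The chi-square of duplicate libraries per degree of freedom was 22.3 to 102, so none was a copy. All 9 members are named in every comparison; of the other lists, at most 4 called genes with the largest changes per culture, and Braf, Trp53 and sex-linked genes as label checks. The members and lists were chosen with earlier results of these data known.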

Additional observations from a re-analysis of the deposited data

Results flagged for a closer look

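In 4 cases, responses differed between cultures by a test of the difference itself, with edgeR's quasi-likelihood test and Benjamini-Hochberg adjustment over all genes. Of all genes, 0.907% passed for the COL BRAFp53 against BRAF difference. For COL against SI, 3.52% passed in the BRAFp53 response and 10.7% in the BRAF response, where 1 of 9 members is near that share. Elf3 in COL responded more positively in BRAFp53 than in BRAF, by 0.90 on the log2 scale (adjusted p = 0.0404), with opposite directions in the 2 cultures and non-overlapping on and off libraries in each. The call held under 6 of 7 other settings, and not with the replicate block (adjusted p = 0.0551). This difference passed in 2 of 8 fits that left out 1 library, and the fall of Elf3 in COL BRAF in 0 of 4. For the BRAF response, Ehf was 0.51 higher in COL than in SI (adjusted p = 0.0412), which passed in 1 of 8 fits without 1 library and under 5 of 7 other settings. For the BRAFp53 response, Elf3 was 0.81 higher in COL than in SI (adjusted p = 0.00718), and for Ets2 the COL minus SI difference was -1.16 (adjusted p = 0.000299). Without 1 library, the first of these passed in 7 of 8 fits and the other in 8 of 8. Cultures of different genotype came from different donors, and the tissues also differed in 4-HT dose, day of RNA isolation and medium, and for BRAFp53 in sex-linked RNA, so that these cannot be told apart.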

How the results depend on the processing

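Of 20 called member results, 132 of 139 repeats under another normalization, filter, tool or block passed, and 7 did not; without 1 library or culture 76 of 106 passed. No called value changed sign. Counts of members called moved by more than 1.5 times as follows; the causes were not tested. With no filter on low counts the count was 1 in COL p53, 3 for the COL BRAFp53 against BRAF difference, 2 in SI BRAF, 1 in SI BRAFp53 and 1 for the SI BRAFp53 against BRAF difference. With at least 10 counts in every library it was 2 for the COL BRAFp53 against BRAF difference and 2 for the BRAF response COL against SI. DESeq2 gave 1 in COL p53, 3 for the COL difference, 4 in SI BRAFp53, 1 for the SI difference and 2 for the BRAF response COL against SI. Of all genes it called 321 in COL p53, 1368 for the COL difference and 2527 in SI BRAFp53. It called 2084 for the SI difference and 2900 for the BRAF response COL against SI. Total counts, an alternative chosen after seeing the data, gave 3 in SI BRAF, 2 for the SI difference and 2 for the BRAF response COL against SI. Among all genes it gave 6836, 1689 and 2220 calls in these comparisons, against 5345, 1383 and 2108. It moved the median of all genes from -0.06 to -0.35 in SI BRAF, from -0.01 to -0.18 in COL BRAF and from -0.04 to -0.20 in COL BRAFp53.

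The replicate numbers did not pair the samples. With the replicate block the count was 0 for the COL BRAFp53 against BRAF difference (Elf3 adjusted p = 0.0551) and 1 in SI BRAFp53 (Etv5 adjusted p = 0.0729); Ehf lost its call and Etv4 gained one for the BRAF response COL against SI (adjusted p of 0.0711 and 0.0332), and no other call changed. Leaving out 1 library gave 0 to 1 for the COL BRAFp53 against BRAF difference, 0 to 1 in SI BRAFp53, 0 to 1 for the BRAF response COL against SI and 1 to 2 for the BRAFp53 response COL against SI. TMM factors within a tissue changed group levels by ratios of 0.901 to 1.11.

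With 2 libraries of 1 culture per group, the SE of a log2 change upon induction was 0.09 to 0.29 for the other members and 0.58 or more for Etv1 in both tissues and Ets1 and Elk3 in SI.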
